A study of Mus musculus with 6 samples.

Results

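The genes described here build the synaptonemal complex and carry out meiotic recombination, and they were read in spermatogonial stem cells, from which sperm production is renewed, grown from mouse testes. They were chosen by name: synapsis, double-strand break and crossover genes other than cohesins. Of the 33 names, 32 had a row among the 24495 gene symbols of the count table, and Rnf212 was not analysed here. The cells came from testes of DBA2 mice at postnatal days 5 to 8 and were kept in culture, and all 6 libraries share that strain, age range and culture. There were 3 libraries of cells given 2 uM EPZ5676 (pinometostat, an inhibitor of the histone H3 lysine 79 methyltransferase DOT1L) for 2 weeks, and 3 of cells given 0.2% ethanol, its vehicle, for the same time. The design text calls the libraries of a group biological triplicates. No label says whether they came from separate animals or cultures, so p-values measure the spread between these libraries.

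In meiotic prophase, SPO11 cuts the chromosomes at sites that PRDM9 marks in mice, and the meiotic recombinase DMC1 helps to pair the broken ends with the homologous chromosome. The synaptonemal complex, a protein zipper of lateral axes joined by a central region, then holds the homologs together while some breaks mature into crossovers. Spermatogonia divide by mitosis and do not form this structure, and in mitotic and somatic cells many of these genes are repressed through DNA methylation and through complexes that contain E2F6, MGA and MAX.

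Gene counts totalled 17784332 to 21046473 in 5 libraries and 54645903 in EPZ5676 replicate 2. Germ cell markers were high, with Dazl at 1695 ± 27.5 and Ddx4 at 663 ± 21.6 CPM (CPM, counts as a share of the TMM-scaled library size, SD, n = 3) in ethanol, and all 14 general and undifferentiated germ cell markers were above 1 CPM in every library. The 10 Sertoli cell markers summed to 34.7 to 47.9 CPM in ethanol and 33.7 to 41.7 CPM in EPZ5676. Of them 4 were above 1 CPM in all libraries, with Wt1 highest at 29.3 CPM in ethanol, while Amh was at or under 0.163 CPM. Of 12 markers of pachytene and later germ cells, 5 were above 1 CPM in all 6 libraries. The highest were Clgn, Piwil1 and Ldhc, with means of 17.8, 14.8 and 9.53 CPM in ethanol. Among the late ones, Tnp1 was at 1.06 to 2.49 CPM and Spink2 at 1.22 to 2.19 CPM, while Prm1 and Acrv1 were at 0 to 0.224 CPM. Both replicate 2 libraries stood apart from the other 4 on the first principal component, at 25.1 and 39.6 against -18 to -13.5. Fibroblast markers, 15 of 15 of them above 1 CPM in all libraries, summed to 1420 to 2479 CPM in ethanol and 1444 to 1893 CPM in EPZ5676, with replicate 2 highest in each group. The 6 Leydig cell markers summed to 7.93 to 10.4 CPM in ethanol and 5.52 to 6.87 CPM in EPZ5676. Most of that sum was Star, with means of 8.05 CPM in ethanol and 5.63 CPM in EPZ5676. The other Leydig markers were under 1 CPM in every library, with Lhcgr at 0 in all. The part of these marker genes in the differences given here was not tested. No marker gene passed the test between the groups. In bulk libraries, fewer cells of a type and less RNA per cell cannot be told apart.

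All 32 genes were already transcribed in the ethanol cultures, taking at least 1 CPM in all 3 ethanol libraries as transcribed. Of all symbols in the table, 53.1% met the same bar. At a bar of 5 CPM 29 genes passed, and the others were Prdm9, Meiob and Ccna1. Mean ethanol levels were 100 CPM or more for 10 genes, between 10 and 100 CPM for 14 and under 10 CPM for 8. Per kilobase of exon, which allows genes to be compared, the level in ethanol was highest for Tex101 (218 CPM per kilobase), followed by Sycp1 (114), Sycp3 (97.8), Tex15 (88.1) and Syce2 (83.4). The lowest were Msh4 (2.56), Hfm1 (1.56), Prdm9 (1.23) and Ccna1 (0.674 CPM per kilobase). The highest genes included structural proteins of the synaptonemal complex. Among these, Sycp3 shares 52.2% of its exon bases with Chpt1 on the opposite strand, and the use of strand in counting is not given. The lowest included the methyltransferase that places breaks and factors that act late, in crossover formation and the meiotic divisions. Level did not follow role throughout. The crossover gene Tex11 was at 54.4 CPM per kilobase. The break genes Mei4 (3.21) and Mei1 (4.09) and the strand invasion gene Meiob (3.19) were also low. The median was 15.0 CPM per kilobase for the 32 genes and 7.21 for the 14527 tested genes with an exon length.

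**Figure D1:**
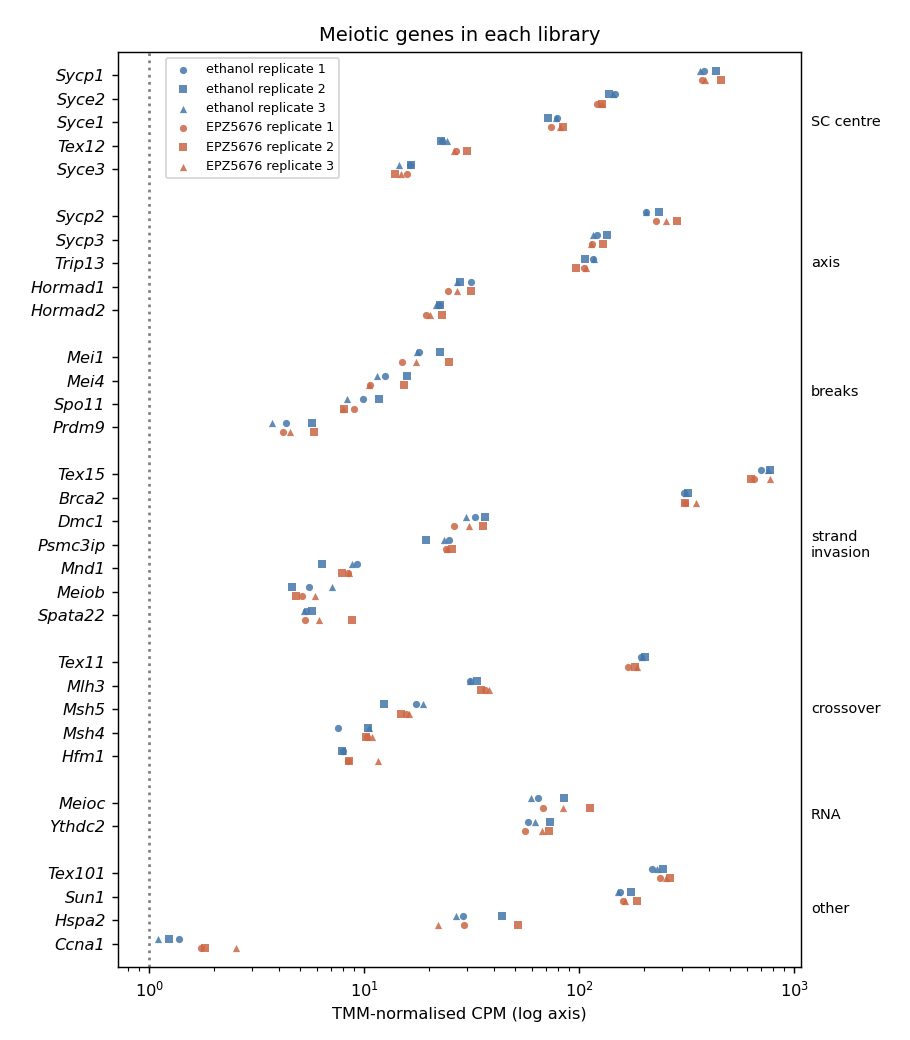
Level of each of the 32 genes in every library, in TMM-normalised CPM on a log axis, grouped by role and sorted by mean ethanol level. Blue points are ethanol, orange points EPZ5676, shapes mark the replicate number, and the dotted line is the bar of 1 CPM; every point lies to its right.

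The central region of the synaptonemal complex was represented by 5 genes. Sycp1, which encodes the transverse filament that spans the gap between homologs, was at 380, 434 and 363 CPM in ethanol replicates 1, 2 and 3 and at 370, 455 and 384 CPM in EPZ5676 replicates 1, 2 and 3. The groups overlapped, with replicate 2 highest in each. Syce3, a small central element protein and the lowest of the 5, was at 16.4, 16.4 and 14.4 CPM in ethanol and 15.8, 13.95 and 14.9 CPM in EPZ5676. Syce1, a further central element gene, ran from 71.2 to 84.0 CPM over the 6 libraries.

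The promoters of several of these genes share letters that E2F6, MGA and MAX are known to bind, and the sequences are shown because these factors are known to hold meiotic genes down in mitotic cells, and the genes shown here were read at 22.8 CPM or more in every library. RefSeq promoter windows on GRCm38.p6 matched 27 of the 32 genes, in 33 windows. The 250 bases upstream of the annotated start were searched on both strands for the E-box CACGTG and the E2F motif GCGGGAA, and 4 promoters are given 5′ to 3′ in the direction of the gene, with these motifs in capitals. The window of Sycp1 lies at chr3:102936101-102936350 on the minus strand, Sycp3 at chr10:88459337-88459586 on the plus strand, Hormad1 at chr3:95559427-95559676 on the plus strand and Tex12 at chr9:50561269-50561518 on the minus strand.
Sycp1: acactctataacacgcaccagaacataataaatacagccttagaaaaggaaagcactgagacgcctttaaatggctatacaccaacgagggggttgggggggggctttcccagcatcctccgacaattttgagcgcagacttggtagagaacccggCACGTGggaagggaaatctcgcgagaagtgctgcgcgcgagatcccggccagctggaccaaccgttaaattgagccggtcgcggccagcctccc
Sycp3: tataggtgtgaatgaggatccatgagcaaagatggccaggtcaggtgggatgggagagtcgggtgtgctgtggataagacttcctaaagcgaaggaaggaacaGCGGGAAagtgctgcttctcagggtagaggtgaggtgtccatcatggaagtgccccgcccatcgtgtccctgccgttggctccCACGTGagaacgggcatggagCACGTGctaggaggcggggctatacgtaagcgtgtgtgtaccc
Hormad1: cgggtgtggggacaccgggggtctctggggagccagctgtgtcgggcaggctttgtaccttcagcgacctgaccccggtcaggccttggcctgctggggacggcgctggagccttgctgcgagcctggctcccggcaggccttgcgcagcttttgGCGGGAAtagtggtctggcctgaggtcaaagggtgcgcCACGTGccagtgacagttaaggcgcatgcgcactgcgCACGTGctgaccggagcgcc
Tex12: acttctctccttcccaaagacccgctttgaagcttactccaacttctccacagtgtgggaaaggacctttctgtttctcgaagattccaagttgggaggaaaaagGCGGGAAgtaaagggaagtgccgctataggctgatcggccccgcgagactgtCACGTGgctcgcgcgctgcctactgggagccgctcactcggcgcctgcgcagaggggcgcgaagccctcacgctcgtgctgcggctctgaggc

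The E-box was present upstream of 5 genes, Sycp1, Sycp3, Hormad1, Tex12 and Syce2, all of which encode parts of the chromosome axis or central region. The other genes of the axis and central region, Syce1, Syce3, Sycp2, Hormad2 and Trip13, held no E-box in their windows. In Sycp3 and Hormad1 it occurred at 2 places. The Syce2 match lies in the window of the downstream of its 2 annotated starts. The E-box was in 18.2% of the 33 windows and in 6.02% of all 32851 promoter windows of the same length. The E2F motif was upstream of 8 genes, Sycp3, Hormad1, Tex12, Syce2, Meioc, Brca2, Msh5 and Prdm9, in 27.3% of the windows against 3.82% of all. The STRA8-MEIOSIN motif CNCCTCAG, searched in the same way, was upstream of Hfm1, Syce2, Hormad2, Prdm9 and Msh5 (15.2% against 6.42%), and overlapped the E2F motif by some bases in Syce2 and Prdm9. The cyclic AMP response element TGACGTCA was upstream of Brca2 only (3.03% against 1.55%). Hormad1 has 2 overlapping windows with the same matches, and both count in the E-box and E2F shares. The windows were also richer in CpG, with a median of 15 sites per 250 bases against 6 in all windows. The E-box and the E2F motif contain CG, and their shares were not compared with windows of like CpG content. A match describes letters and not binding, and Tex101, Sycp2 and Ccna1, among others, held none of these 4 motifs in this window.

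**Figure D2:**
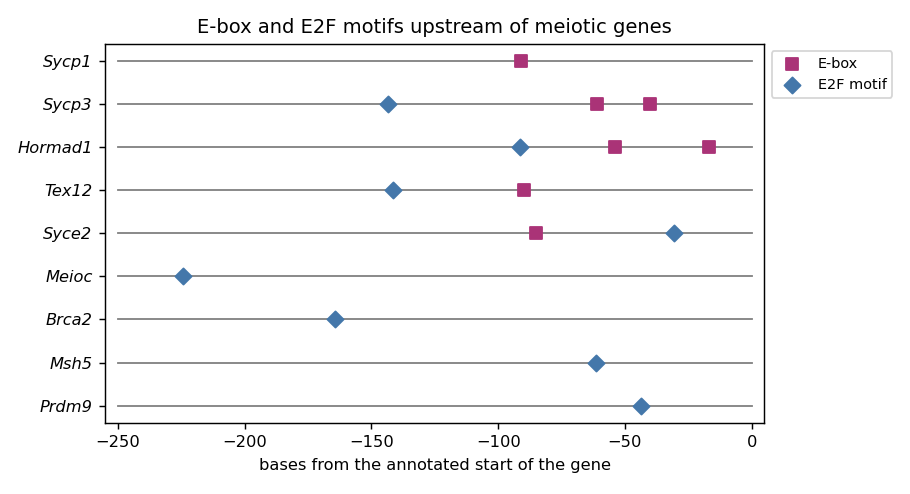
Position of the E-box (squares) and the E2F motif (diamonds) in the 250 bases upstream of the annotated start, in bases, for the 9 genes that hold either. Where a gene has several starts, the first window with a match is drawn; the 5 upper genes hold the E-box.

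Among all 32 genes, the inhibitor was set against its vehicle in edgeR (quasi-likelihood test, Benjamini-Hochberg adjusted over the 14855 genes tested). No gene of the 32 passed in either direction, and their adjusted p ran from 0.628 to 0.991; this test called 0% of all genes in either direction. At an unadjusted p under 0.05, 3 were higher and 1 lower, against backgrounds of 3.84% and 3.57% of all genes. Together they are 12.5% of the 32, against 7.41%. With the replicate number as a block, 0 of the 32 passed, where 0.323% of all genes passed as higher and 0.33% as lower, 0.653% in all. In that blocked fit 6 were higher and 3 lower at an unadjusted p under 0.05, against 9.01% and 9.51% of all genes, or 28.1% against 18.5% in both directions. The groups did not overlap for 6 of the 32, with EPZ5676 higher for Tex12, Mlh3, Hfm1 and Ccna1 (7.22% of all genes) and lower for Syce2 and Tex11 (7.64%). That is 18.8% against 14.9% of all genes. At an unadjusted p under 0.05 and for groups that did not overlap, the shares over both directions lay above those of all genes. By direction, the shares of higher genes lay above those of all genes, and the shares of lower genes near or below them. These differences were not tested. The median log2 fold change was 0.03 over the 32 genes and -0.00663 over all genes tested, with 18 of the 32 positive (48.3% of all genes, with or without the block) and 14 negative (51.7%).

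The intervals of the fit without the block show, gene by gene, which sizes of difference these libraries leave in range. They are not adjusted over the 32 genes, rest on the spread between these libraries, and are relative to the TMM-scaled library sizes. The 95% interval of the log2 fold change lay within a 2-fold difference in either direction for 31 of 32 genes, Ccna1 being the exception, and within 1.5-fold for 24. For the synaptonemal complex centre and the axis, all 10 intervals lay within 1.5-fold.

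**Figure D3:**
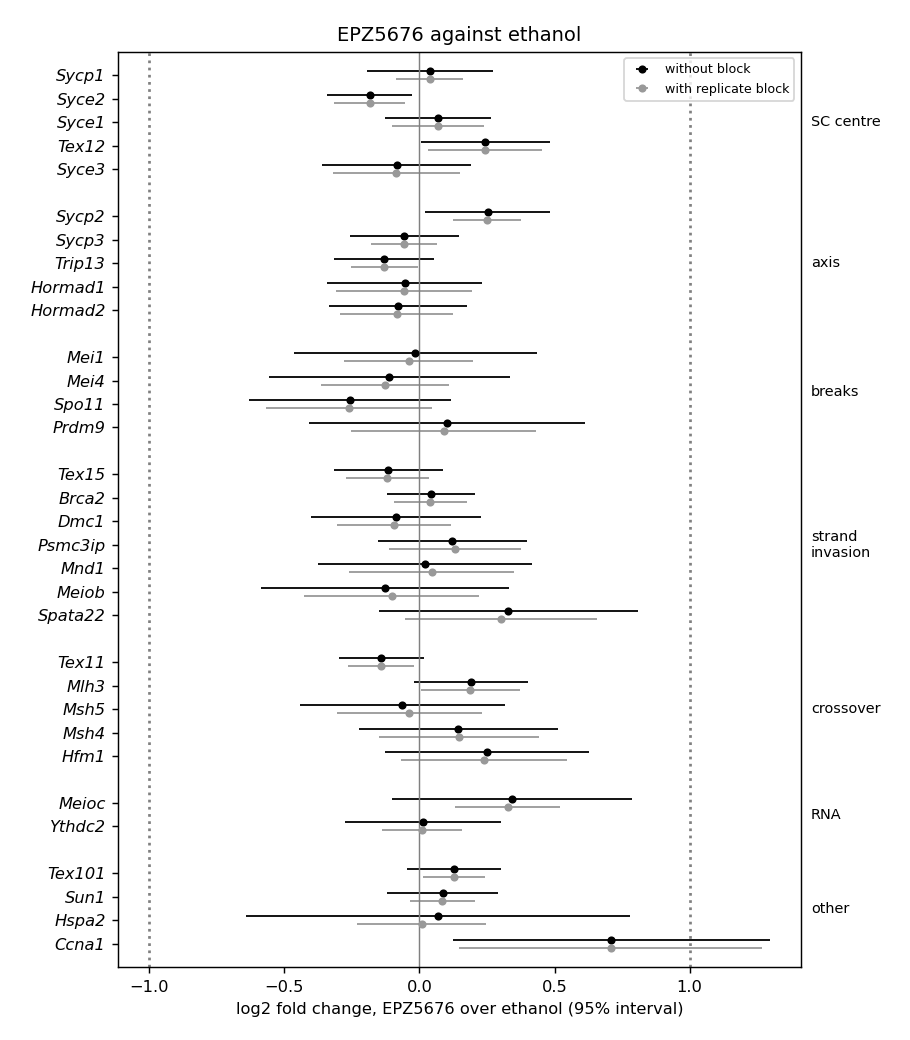
Log2 fold change of EPZ5676 over ethanol for the 32 genes, with 95% intervals from the edgeR fit without (black) and with (grey) the replicate block. Dotted lines mark a 2-fold difference; only the Ccna1 intervals cross one, and no gene passed the adjusted threshold.

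In the central region, Syce2 and Tex12, whose proteins form one complex along the central element, leaned in opposite directions. Syce2 was at 146, 138 and 143 CPM in ethanol and 120, 127 and 128 CPM in EPZ5676 replicates 1, 2 and 3. All EPZ5676 libraries were below all ethanol libraries, and the log2 fold change was -0.18 ± 0.07 (SE, edgeR adjusted p of 0.644). Tex12 was at 23.1, 22.8 and 24.3 CPM in ethanol and 26.8, 30.1 and 26.1 CPM in EPZ5676. All EPZ5676 libraries were above all ethanol libraries, with a log2 fold change of 0.24 ± 0.10 (edgeR adjusted p of 0.668). Sycp1 and Syce1 had log2 fold changes of 0.04 and 0.07 and Syce3 one of -0.08. Without both replicate 2 libraries, Syce2 had a log2 fold change of -0.22 and Tex12 one of 0.16. Neither was called in that fit without the block, and with the block Syce2 was (edgeR adjusted p of 0.0447). The blocked fit called 363 higher and 432 lower of 14822 genes.

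Of the axis genes, Sycp2, which encodes a lateral element protein that partners SYCP3, had the smallest p of the 32 genes with the block. It was at 204, 235 and 204 CPM in ethanol and 227, 286 and 253 CPM in EPZ5676 replicates 1, 2 and 3. Each EPZ5676 library was above the ethanol library of the same number, but EPZ5676 replicate 1 was below ethanol replicate 2. The log2 fold change was 0.25 ± 0.10 (SE), and edgeR gave it an adjusted p of 0.652, or 0.0818 in the blocked fit. DESeq2 with the block gave an adjusted p of 0.0415 and thus called it, in a fit that called 135 higher and 158 lower of 14855 genes. So did edgeR with the block and without both replicate 2 libraries (0.0247), a fit that rests on 1 residual degree of freedom. Without replicate 1 in both groups that blocked fit called none of the 32.

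The other axis genes differed by less. Trip13, an ATPase that strips HORMAD proteins from synapsed axes, was at 115, 106 and 117 CPM in ethanol and 106, 96.0 and 108 CPM in EPZ5676, with a log2 fold change of -0.13 ± 0.08. The groups overlapped, and each EPZ5676 library was below the ethanol library of its number. Hormad2, an axis protein that marks unsynapsed chromosomes, was at 22.2, 22.6 and 21.6 CPM in ethanol and 19.3, 23.1 and 20.2 CPM in EPZ5676. Its relative Hormad1 ran from 24.4 to 31.5 CPM over the 6 libraries, and both groups overlapped for each. Sycp3, the other lateral element gene, had a log2 fold change of -0.06. On GRCm38 gene models, 52.2% of its exon bases are shared with Chpt1 on the opposite strand, and whether the counting used strand is not given in the sources used here.

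Genes of break formation were at 24.6 CPM or less in every library. Mei1, required for break formation, was the highest of the 4 and was at 18.1, 22.5 and 17.6 CPM in ethanol and 15.0, 24.6 and 17.4 CPM in EPZ5676. Prdm9 was the lowest, at 4.32, 5.71 and 3.70 CPM in ethanol and 4.19, 5.84 and 4.53 CPM in EPZ5676. For both Mei1 and Prdm9, replicate 2 was highest in each group and the groups overlapped. Spo11, the nuclease itself, was at 9.96 ± 1.73 CPM in ethanol and 8.33 ± 0.541 CPM in EPZ5676 (SD, n = 3). Its log2 fold change was -0.26 ± 0.16 (SE, edgeR adjusted p of 0.759). Mei4, a further break factor, had a log2 fold change of -0.11.

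Genes of strand invasion and single-strand DNA binding included the highest CPM of the 32, that of Tex15. Tex15, needed for meiotic break repair and for silencing of transposons in the male germline, was at 698, 767 and 756 CPM in ethanol and 650, 632 and 769 CPM in EPZ5676. EPZ5676 replicate 3 was above every ethanol library and the other EPZ5676 libraries were below them all. Spata22, the partner of the single-strand DNA binding protein MEIOB, was at 5.34, 5.71 and 5.22 CPM in ethanol and 5.32, 8.76 and 6.14 CPM in EPZ5676. Its log2 fold change of 0.33 ± 0.21 became 0.12 without both replicate 2 libraries and 0.08 without EPZ5676 replicate 2 alone. Brca2, which acts in break repair in meiotic cells and in mitotic repair as well, had a log2 fold change of 0.04, and Dmc1, the meiotic recombinase, one of -0.09. Psmc3ip and Mnd1, whose products form the HOP2-MND1 complex that assists DMC1, had values of 0.12 and 0.02, and Meiob one of -0.13. For Psmc3ip, 29.8% of exon bases are shared with Mlx on the opposite strand, and for Spata22 80.5% are shared with the readthrough model Gm49340 on the same strand.

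Of the 5 crossover genes measured, Mlh3 and Hfm1 were higher and Tex11 lower in every EPZ5676 library than in any ethanol library, without passing the test. Tex11, an X-linked crossover gene, was at 193, 201 and 197 CPM in ethanol and 169, 182 and 186 CPM in EPZ5676, with a log2 fold change of -0.14 ± 0.07 (SE, edgeR adjusted p of 0.68). Mlh3, a mismatch-repair family gene that acts at crossovers, was at 31.1, 33.3 and 31.0 CPM in ethanol and 36.3, 34.7 and 37.9 CPM in EPZ5676, with 0.19 ± 0.09 (edgeR adjusted p of 0.68). Hfm1, a helicase of crossover formation, was at 7.98, 7.90 and 7.97 CPM in ethanol and 8.39, 8.51 and 11.5 CPM in EPZ5676, and its log2 fold change of 0.25 ± 0.16 became 0.09 without EPZ5676 replicate 3. Msh4 and Msh5, which encode a heterodimer that stabilises crossover intermediates, had values of 0.14 and -0.06.

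Meioc and Ythdc2 encode RNA-binding partners that help germ cells leave the mitotic programme. Meioc was at 64.5, 84.5 and 59.7 CPM in ethanol and 67.7, 112 and 84.1 CPM in EPZ5676 replicates 1, 2 and 3. It was higher in each EPZ5676 library than in the ethanol library of the same number, yet the groups overlapped, with replicate 2 highest in both. The log2 fold change was 0.34 ± 0.19 (SE) with an edgeR adjusted p of 0.727, and 0.115 with the block. The log2 fold change was 0.13 without EPZ5676 replicate 2 and 0.50 without ethanol replicate 2. Ythdc2 was at 57.6, 73.3 and 62.3 CPM in ethanol and 55.7, 71.9 and 66.7 CPM in EPZ5676, with a log2 fold change of 0.01 ± 0.13.

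Among the remaining genes, Ccna1, the gene of the meiotic cyclin A1, had the largest log2 fold change of the 32 and the lowest level. It was at 1.37, 1.23 and 1.09 CPM in ethanol and 1.74, 1.81 and 2.53 CPM in EPZ5676, from 27, 22 and 23 counts and from 34, 100 and 52 counts. All EPZ5676 libraries were above all ethanol libraries, with a log2 fold change of 0.71 ± 0.26 (SE), a 95% interval of 0.12 to 1.30 and an edgeR adjusted p of 0.628. Tex101, a glycoprotein of the germ cell surface, was at 217, 245 and 230 CPM in ethanol and 238, 264 and 252 CPM in EPZ5676. The groups overlapped, each EPZ5676 library was above the ethanol library of its number, and the log2 fold change was 0.13 ± 0.08. Sun1, which tethers telomeres to the nuclear envelope and acts in somatic cells as well, had a log2 fold change of 0.09, and Hspa2, a chaperone of spermatocytes, one of 0.07 ± 0.31. For Ccna1, 10.1% of exon bases are shared with an antisense gene, 4931419H13Rik.

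Over all 32 genes, 8 were higher and 6 lower in EPZ5676 in all 3 pairs of the same number, while 19.5% and 22.3% of all genes tested were. Those higher were Tex12, Sycp2, Mlh3, Hfm1, Meioc, Ccna1, Tex101 and Sun1, and those lower were Syce2, Sycp3, Trip13, Spo11, Mei4 and Tex11. The other 18 differed in direction between pairs.

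Within the groups, many of the genes moved with the replicate number, as did many of all genes tested. In 14 of the 32 genes the replicate 2 library was the highest of its group in both ethanol and EPZ5676, and in 4, Trip13, Mnd1, Meiob and Msh5, it was the lowest in both. Among all genes tested these shares were 26.1% and 26.6%, against 43.8% and 12.5% of the 32. The 32 thus differed from all genes in the split between highest and lowest, and that difference was not tested. Hspa2 was furthest apart, at 28.7, 43.7 and 26.8 CPM in ethanol and 29.1, 51.9 and 22.1 CPM in EPZ5676, so that replicate 2 was 1.57 and 2.03 times the mean of replicates 1 and 3. The genes Mei1, Mei4, Prdm9 and Meioc were 1.26 to 1.52 times as high in replicate 2 as in the mean of the others, and Stra8, a retinoic acid target that drives meiotic entry, was likewise highest there, at 281 and 260 CPM. Ratios for Sycp1, Sycp2 and Sycp3 were 1.13 to 1.21. The sums of fibroblast markers and of the 5 myoid markers (128 and 80.9 CPM in replicate 2, 47.8 to 59.9 CPM elsewhere) were also highest in replicate 2 of each group. The sum of the 12 markers of later germ cells was lowest there, at 38.6 and 45.6 CPM against 50.1 to 56.1 CPM. Single genes could differ from their sum. In EPZ5676 replicate 2 the fibroblast marker Dcn was lowest of its group (16.4 CPM) and the later germ cell marker Piwil1 highest (16.1 CPM). The sum of the 14 general and undifferentiated germ cell markers was lowest in replicate 2 of each group too, at 5018 and 5189 CPM against 5519 to 5814 CPM. Of these 14 genes, Nanos2 is a gene of the most undifferentiated spermatogonia. It was at 14.6, 3.19 and 13.3 CPM in ethanol and 14.5, 5.91 and 12.7 CPM in EPZ5676. Zbtb16, Sall4, Nanos3, Lin28a, Tdrd1 and Mael were also lowest in replicate 2 of each group. Dazl, Ddx4, Gfra1, Ret, Etv5, Id4 and Uchl1 were not lowest there in both groups. Ddx4 was highest in ethanol replicate 2, and Gfra1 was highest in EPZ5676 replicate 2. The part of these marker genes in this pattern was not tested.

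**Figure D4:**
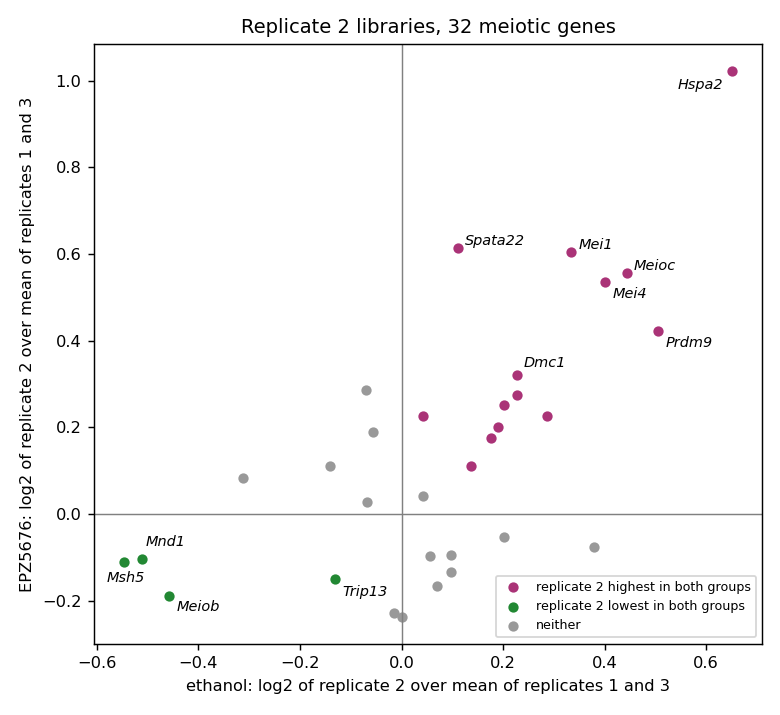
Log2 of the replicate 2 level over the mean of replicates 1 and 3, in ethanol (horizontal) and EPZ5676 (vertical), 1 point per gene. Purple points are the 14 genes highest in replicate 2 in both groups, green points the 4 lowest there, and Hspa2 is the point at the upper right.

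Other genes of the pathway were read from a list of 90 names of recombination partners, repressors and activators of meiotic genes, of which 85 had a row and were tested. None passed over all genes with or without the block, where 0.653% and 0% of all genes passed; the median log2 fold change was 0.01, and 45 were positive and 40 negative. At an unadjusted p under 0.05, 2 were higher and 0 lower without the block, against 3.84% and 3.57% of all genes. With the block 8 were higher and 3 lower, against 9.01% and 9.51%. The shares of the 85 were near or below the background. Mus81, a nuclease that resolves recombination intermediates, was at 23.5, 23.1 and 23.3 CPM in ethanol and 31.0, 38.6 and 28.5 CPM in EPZ5676. All EPZ5676 libraries were above all ethanol libraries, and the log2 fold change was 0.49 ± 0.13 (SE, edgeR adjusted p of 0.596, or 0.0748 with the block). It was called by DESeq2 with the block (adjusted p of 0.0214), a fit that called 135 higher and 158 lower of 14855 genes. Its log2 fold change was 0.34 without both replicate 2 libraries.

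Other partners with the smallest p included Dnmt1, the maintenance DNA methyltransferase, at 733 ± 31.6 CPM in ethanol and 829 ± 39.7 CPM in EPZ5676 (SD, n = 3). The helicase gene Blm had a log2 fold change of 0.14. On the lower side were Ccdc36, which encodes the break factor IHO1 (-0.27), Fkbp6, a chaperone gene of the piRNA pathway (-0.14), Dnmt3b, a de novo DNA methyltransferase gene (-0.22), and Eme1, the partner of Mus81 (-0.17). None of these 6 passed in edgeR with all libraries, with adjusted p between 0.644 and 0.729 without the block. In edgeR with the block and without both replicate 2 libraries, Dnmt3b (adjusted p of 0.0166), Ccdc36 (0.0409) and Fkbp6 (0.0438) were called lower. Fancm was called higher there (edgeR adjusted p of 0.0447). These calls were 1 higher and 3 lower of the 85, in a fit that called 363 higher and 432 lower of 14822 genes. Mga, Max and E2f6, the repressor genes named with the promoters, were at 801 ± 94.3, 66.9 ± 4.18 and 120 ± 8.77 CPM in ethanol, with log2 fold changes of -0.09, 0.18 and -0.07.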

How the data were processed

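Stranded mRNA libraries, 6 in all, were sequenced, per the labels' protocols. The deposited gene table gives raw, whole-number counts. The submitters' processing notes name mm9 and the tools Bowtie, STAR, edgeR and featureCounts. Neither their versions nor the use of strand is given in the sources used here. The repeat table was not used here. Counts were analysed in R 4.3.3 with edgeR 4.0.16: filterByExpr kept 14855 of 24495 symbols, TMM set the library scales, and the groups were compared by the 2-sided quasi-likelihood test, with Benjamini-Hochberg adjustment over all genes tested and a threshold of 0.05. DESeq2 1.42.0 was an alternative. The tests were checked on simulated counts with 2-fold changes and no pairing of libraries. That check does not cover smaller differences or libraries that vary together by number. Intervals are 95% intervals from the fit.

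The members and lists were chosen with earlier results of these data known. Values in every library are given for members with an unadjusted p under 0.05 in either fit, with groups that did not overlap, or with the highest or lowest ethanol mean of their role group. The 4 pathway genes of smallest p in each direction are named, with every library's value for Mus81, except 1 that is not reported here. Spo11, Hspa2, Stra8, Mga, Max and E2f6 were added after their values were seen.

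Same-numbered libraries deviated from their group means together, with correlations across genes of 0.41, 0.61 and 0.34 for numbers 1, 2 and 3, against -0.49 to 0.28 for the others. All same-numbered correlations exceeded 0.1, so the numbers were taken as pairs, although no label states what they mark. That bar does not tell numbers 1 and 3 apart, because their crossed correlations exceeded it too. These were 0.28 for number 1 of EPZ5676 against number 3 of ethanol, and 0.15 for the reverse. The pairing of numbers 1 and 3 is therefore an assumption of the blocked fits and of the counts over pairs. Deviations from a group mean cancel within the group, so positive same-numbered correlations push the crossed ones down. All the pairing was read from the same counts that the blocked fits test. Exon lengths are from GENCODE M21 and promoters from RefSeq, both on GRCm38 and not mm9.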

Additional observations from a re-analysis of the deposited data

How the results depend on the processing

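All 32 members passed as transcribed at a bar of 0.5 CPM and, at 1 CPM, under library totals or RLE size factors and without any 1 ethanol library; 29 passed at 5 CPM. No member or pathway gene was called in edgeR with the replicate block, RLE size factors, library totals, no filter, a filter of 1 CPM in 3 libraries, without any 1 library or without both replicate 2 libraries, or in DESeq2 without the block. Over all genes, 0 were called in either direction, 48 higher and 49 lower with the replicate block, 22 and 28 in DESeq2, and 6 and 4 without both replicate 2 libraries.

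DESeq2 with the replicate block, chosen after seeing the data, called 135 genes higher and 158 lower, 1 member higher (Sycp2) and 0 lower, and 1 pathway gene higher (Mus81). Its filter gave 4 members no adjusted p. The replicate block without 1 pair, chosen likewise and left with 1 residual degree of freedom, called 0 to 486 genes higher (363 without pair 2, 486 without pair 3) and 0 to 432 lower (432 and 275), with 0 to 1 members in each direction, 0 to 1 pathway genes higher and 0 to 3 lower. Without pair 2 the pathway calls were Fancm higher and Dnmt3b, Fkbp6 and Ccdc36 lower, and without pair 3 Mus81 was called higher.

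The median log2 fold change of the members ran from -0.0485 without EPZ5676 replicate 2 to 0.102 without EPZ5676 replicate 1. The sign was followed only for the members that the rule above selected for values in every library, and not for the other members. Among those followed, signs turned when 1 library was left out for Sycp1 (-0.0573 to 0.115), Prdm9 (-0.0656 to 0.289), Mei1 (-0.255 to 0.126) and Ythdc2 (-0.0723 to 0.111). Without 1 pair under the replicate block, signs turned for Mei1 (0.0633) and Ythdc2 (-0.0354). The cause was not tested. The levels under 10 CPM and the 2 residual degrees of freedom of the blocked fit limit what could be detected.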
